A study of Zea mays with 56 samples.

Results

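The interior of maize chromosome 4 held 192720 of the 2253850 Mu insertion sites in the deposited table. Its members were chosen by position alone, as sites whose first border lay more than 10 Mb from the start of the chromosome and more than 10 Mb below its highest site, at 254265151. The chromosome itself was selected on its number of sites per Mb, so its density is described here and not tested. The last site outside the lower limit lay at 9997075 and the first member at 10002614. At the other end the last member lay at 244261872 and the first site outside at 244270012.

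Mu elements are DNA transposons of maize that move by a cut and paste reaction catalysed by the MURA transposase, and each insertion duplicates a short stretch of the target. They are known to insert preferentially near the starts of genes and in open, unmethylated chromatin, so that gene-rich chromosome arms receive more insertions than the regions around centromeres. In active lines many insertions arise late in development and stay in small sectors of a tissue, whereas an insertion present in the gamete is carried by the whole plant. Endosperm, which shares both parents with the embryo but has its own cell lineage from fertilization on, helps to separate these kinds, since an insertion inherited through the gametes is found throughout both endosperm and embryo-derived tissue.

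Insertions were counted with MuSeq2, a method that ligates an adapter to sheared DNA and amplifies the junctions between Mu ends and the genome. The Mu-active plants (W22 MuActive) were the offspring of a male with active and a female with inactive Mu elements, W22 inbreds both, and the Mu-inactive plants (W22 Mu-Inactive) were of the line of that female. A chip of endosperm was taken from each Mu-active kernel, and the plant grown from it gave seedling leaf, primary root or pollen. The 46 undiluted Mu-active libraries came from 17 plants. They held endosperm of 15 plants, leaf of 6 plants (8 libraries), root of 6 plants, pollen of 14 plants (15 libraries), and 2 further endosperms, of plants 61 and 74, whose genotype label adds B73 MuKiller, a locus known to silence Mu elements. Mu-inactive leaf gave 4 libraries of 3 plants, and 6 libraries held leaf DNA of plants 79 and 83 diluted 1 part in 3, 10 or 30 with Mu-inactive leaf. Endosperm and pollen DNA was extracted by CTAB and leaf and root DNA with a kit, so that extraction and tissue cannot be told apart except within those pairs. Total counts per undiluted library ran from 7119 in pollen to 3650060 in root.

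The level of a site was expressed as relative abundance, its count divided by the median count of 28 sites read in every undiluted library. Those reference sites were read in Mu-inactive leaf as well, so a relative abundance near 1 is the level of a site common to all plants. A site was called inherited when a plant's endosperm and at least 1 library of its leaf, root or pollen both reached 0.1. It was called de novo when it was read in 1 plant only and was not inherited, and recurrent when it was read in at least 2 Mu-active plants, was inherited in none and had 0 counts in Mu-inactive leaf.

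Of the members, 140277 (72.8%) were de novo, 42370 recurrent and 37 (0.0192%) inherited. A further 1558 (0.808%) were read in Mu-inactive leaf without being inherited, and 8478 (4.40%) were read only in diluted libraries. The other chromosomes had similar shares. There 71.9% to 73.1% were de novo, 21.7% to 23.4% recurrent and 0.0164% to 0.0307% inherited. Mu-inactive leaf gave 0.400% to 0.857% there, and diluted libraries alone 4.09% to 4.38%. The border-to-border span was 9 bp at 192709 members, 99.9943% of them, the length of the target duplication of Mu.

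The name given to the chromosome held for its whole length and not for its interior. Over the whole chromosome, chromosome 4 had 670.5 de novo sites per Mb, the lowest of the 10 chromosomes, where the others had 713.3 to 870.3. In the interior it had 598.8 de novo sites per Mb over 234.3 Mb (95% Poisson interval 595.7 to 601.9, counting error only). Chromosome 10 was lower, at 596.8, a value inside that interval. The other chromosomes ran from 596.8 to 814.2 with a median of 660.7, so that chromosome 4 stood at 0.906 times the median. Chromosome 7, the next above it, had 603.0.

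The place of chromosome 4 in that order moved with the definition. It was lowest in endosperm alone, at 307.0 sites per Mb beside 308.8 on chromosome 10. In root alone it was also lowest, at 21.2 beside 21.6 on chromosome 9. Chromosome 4 was the second lowest in pollen alone, at 80.3, and the fourth lowest in leaf alone, at 193.4. These ranks rest on small differences and were not tested. With both borders read it was the fourth lowest, at 74.5, and with 20 Mb taken from each end it was the fifth lowest, at 592.7. On that shorter stretch its ratio to the median of the others was 0.985.

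The interior had no empty stretch at the scale of 1 Mb. Its 234 full 1-Mb bins held between 56 and 2210 de novo sites with a median of 509. Bins under 50% of that median, called poor here, numbered 36, or 15.4% of bins, the lowest share of the 10 chromosomes (15.5% to 28.5% in the others). They held 4.61% of the de novo sites. Bins over 2 times the median, called dense, numbered 30, or 12.8%, and held 29.3%. The coefficient of variation over bins was 0.646, against 0.542 to 0.790 on the other chromosomes.

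**Figure D1:**
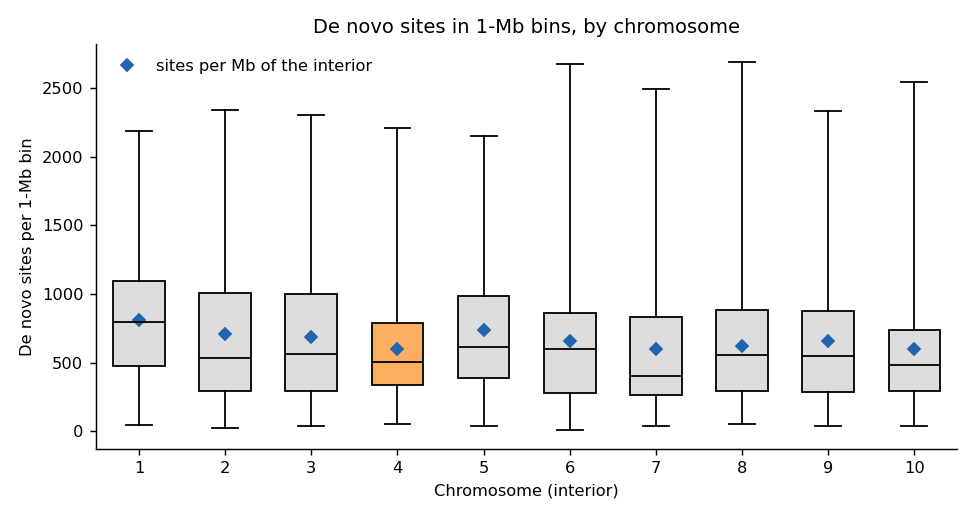
De novo sites per 1-Mb bin (y axis) in the interior of each chromosome (x axis). Boxes span the quartiles with the median as a line, whiskers reach the lowest and highest bin, diamonds give sites per Mb, and chromosome 4 is orange. Its median of 509 was the third lowest, and its highest bin of 2210 lay among those of the other chromosomes.

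The interior was sparser before its midpoint, with a mean of 433 de novo sites per bin, than after it, with 762. The lowest 10-Mb block, from 110000001 to 120000000, had 180.8 de novo sites per Mb. The highest, from 180000001 to 190000000, had 1514. The mean per bin was also higher after the midpoint on every other chromosome except 5, where the means were 739 before and 734 after. On chromosome 7 they were 317 and 879, and on chromosome 1 they were 686 and 941.

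The longest run of poor bins covered 12 bins, from 102000001 to 114000000, with 1636 sites and 56 to 254 per bin. The 5 poorest bins all lay in it. The poorest, starting at 112000001, held 56 de novo sites, and 13 of the 17 plants had at least 1 of them. The bins starting at 110000001, 106000001, 104000001 and 108000001 held 57, 67, 74 and 83. Further poor runs lay close by, with 5 bins from 115000001 to 120000000 and 4 bins from 94000001 to 98000000. The longest poor run of each other chromosome covered 5 to 27 bins, with a median of 12.

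The longest run of dense bins, from 179000001 to 185000000, held 10719 de novo sites in 6 bins. It contained the 4 densest bins, which began at 182000001, 183000001, 181000001 and 180000001 and held 2210, 2115, 1985 and 1951 sites. The fifth, starting at 171000001, held 1690. All 17 plants had de novo sites in each of these 5 bins. Dense runs followed from 186000001 to 191000000, with 6770 sites, and from 193000001 to 199000000, with 7573.

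**Figure D2:**
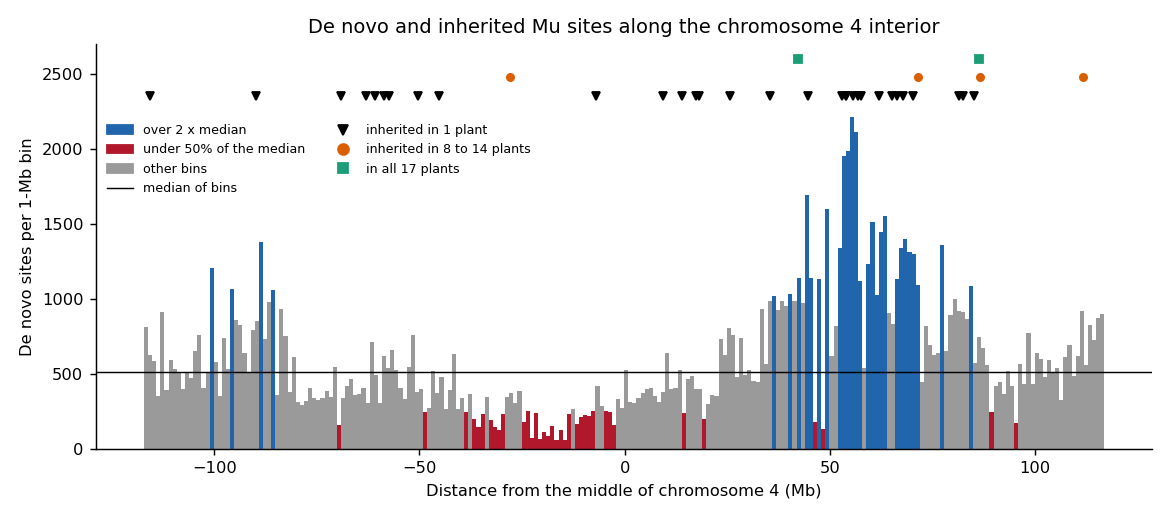
De novo sites per 1-Mb bin (y axis) against distance from the middle of chromosome 4 in Mb (x axis), with dense bins in blue, poor bins in red and the median of 509 as a line. Markers above the bars give the positions of inherited sites by the number of plants that carried them. The poor bins gather just left of the middle and the dense bins to the right, where inherited sites of 1 plant also stand close together.

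Poor bins also occurred inside the dense stretch. The bin from 173000001 to 174000000 held 179 de novo sites between neighbours of 1137 and 1130. The bin from 175000001 to 176000000 held 133 between neighbours of 1130 and 1602. The profile thus fell and rose again from 1 bin to the next.

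At a finer scale the sites lay close together. The median distance between neighbouring de novo sites was 24 bp, and 84.7% had a neighbour within 100 bp, against 84.3% to 87.8% on the other chromosomes. The longest distance without a de novo site was 360385 bp, against 199693 to 540346 bp on the other chromosomes. It ran from 111549656 to 111910041 within the longest poor run, and 2 sites of other classes lay inside it. The second, of 287196 bp from 28614226 to 28901422, held no site of any class. The third, of 256467 bp from 191795451 to 192051918, lay between 2 dense runs and held 2. Which genes or repeats these stretches contain was not analysed here, since the genome build of the coordinates is not given in the sources used here.

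Inherited sites numbered 37 on this chromosome, or 15.8 per 100 Mb of interior, where the others had 16.8 to 26.5. With so few sites the counting error is large, chromosome 5 was close at 16.8, and the difference was not tested. Of the 37, 31 were inherited in 1 plant each, none in 2 to 7 plants, 4 in 8 to 14 plants and 2 in all 17 plants. Thresholds of 0.05 and of 0.2 in place of 0.1 also gave 37.

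The 31 sites inherited in 1 plant belonged to 13 plants. Plant 61 had 7 of them and plant 52 had 4, and plants 42, 63, 65 and 76 had none. Their median relative abundance in the plant's own libraries ran from 0.388 to 1.38, with a median of 0.841. In libraries of other plants it reached at most 0.00953, although 26 of the 31 had at least 1 count in another plant. By position 21 of the 31 lay beyond the midpoint of the interior. De novo sites were also denser there, with a mean of 762 per bin against 433 before the midpoint. Dense bins held 11 of the 31 (35.5%) and poor bins 1 (3.23%), beside 29.3% and 4.61% of de novo sites.

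The 2 sites carried by all 17 plants were also present in every Mu-inactive library, and both belong to the 28 sites that set the reference level. The site from 169355206 to 169356095 spanned 890 bp and had a relative abundance of 0.731, 0.760, 0.779 and 0.852 in the 4 Mu-inactive libraries. The site from 213483884 to 213485715 spanned 1832 bp and had 1.26, 1.31, 1.58 and 1.71 there. Across Mu-active libraries their medians were 0.909 and 1.20. They were the only members with at least 10 counts in all 4 Mu-inactive libraries.

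The 4 sites shared by 8 to 14 plants were segregating among the Mu-active plants. Mu-inactive leaf had 0 counts at 3 of them and at most 2 counts at the fourth, the site at 238881910. The site from 99086022 to 99086030 was inherited by 8 plants, and was named after its values were seen because it falls outside the rule for named sites. The site from 198551721 to 198551729 was inherited by 14 plants, all but plants 65, 83 and 106. The sites from 213569422 to 213569430 and from 238881910 to 238881918 were inherited by the same 11 plants.

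The last 2 of these sites lie 25.3 Mb apart and had the same state, both present or both absent, in 17 of 17 plants. The site at 198551721 had the same state as either of them in 14 of 17 plants and differed in plants 42, 52 and 74. Plants 42 and 52 are labelled ND67 and the other 15 ND58 in the sample titles, though the description of pollen 69 gives ND67. The site at 99086022, some 99.5 Mb from the site at 198551721, had the same state as it in 9 of 17 plants and the same state as the last 2 in 8 of 17.

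The levels of carriers differed between these sites. At 198551721 the endosperm of carriers ran from 0.180 to 1.14 with a median of 0.348, and embryo-derived tissue had a median of 0.493. At 99086022 the medians were 1.06 in endosperm and 0.987 in embryo-derived tissue. At 213569422 they were 0.777 and 0.757, and at 238881910 they were 0.903 and 0.768.

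Plants that had not inherited these sites fell into 2 kinds by their endosperm. The endosperms of plants 61, 65, 69, 74, 75, 76 and 83 read each site that the plant lacked at a relative abundance between 0.0160 and 0.0648. The endosperms of plants 42, 52, 105, 106 and 107 read them at 0 to 6.85e-05. In embryo-derived libraries of all 12 plants the level was at most 0.00665, in the pollen of plant 75, where it is the level of 3 counts, and at most 0.00151 in the other plants. What gave the low reads in those 7 endosperms was not tested.

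**Figure D3:**
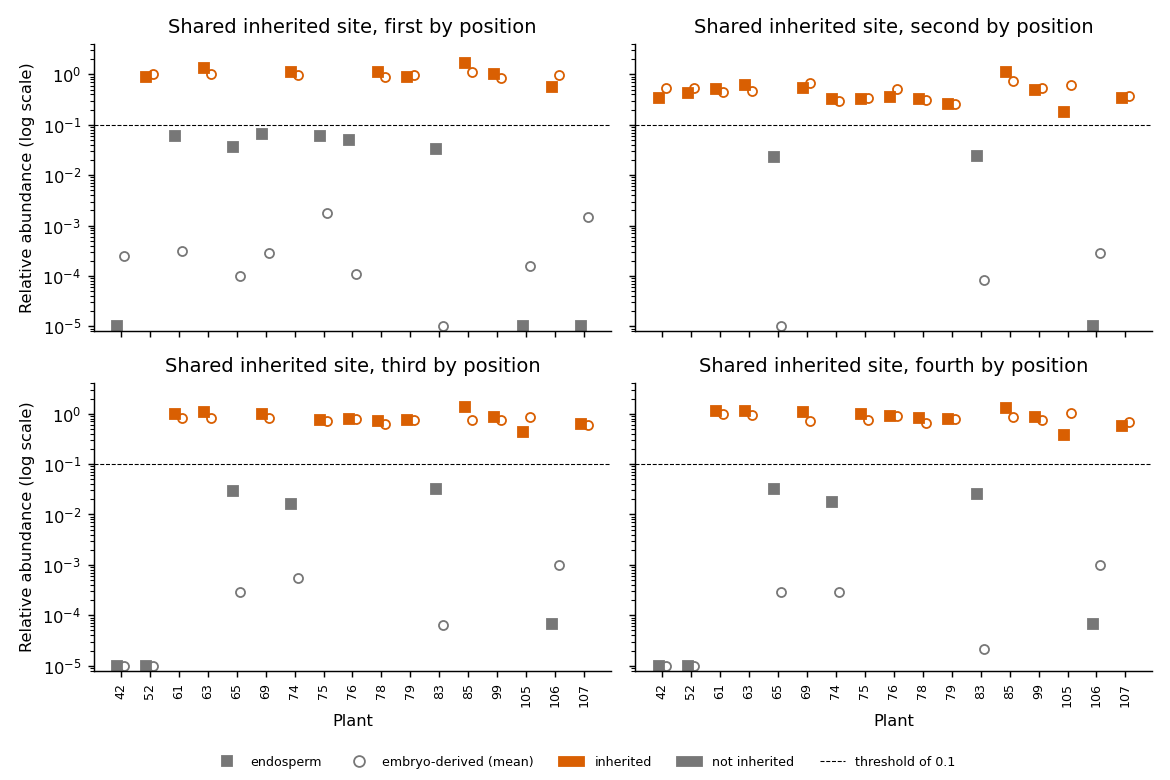
Relative abundance (y axis, log scale) of the 4 segregating sites by plant (x axis) in endosperm (filled squares) and as the mean of embryo-derived libraries (open circles), orange where inherited. A value of 0 is drawn as the lowest position on the axis, and the dashed line is the threshold of 0.1. Gray squares between 0.0160 and 0.0648 are the 7 endosperms that read sites their plants had not inherited.

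Recurrent sites were the second most numerous class. Of the 42370, 52.4% were read in 2 plants, 18.9% in 5 or more and 4.03% in 10 or more, and 104 sites were read in all 17 plants. On the other chromosomes 51.2% to 52.9% were read in 2 plants and 3.51% to 4.30% in 10 or more. Most were at low levels, with 437 (1.03%) reaching 0.01 and 11 reaching 0.1 in any library. Without both libraries of pollen 79, where a single count is over 0.01, these numbers were 251 (0.592%) and 8. At 12916 of them (30.5%) every library that read the site had 1 count.

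Of the 104 recurrent sites read in all 17 plants, the 5 with the most summed counts had their highest level in leaf or pollen. The site from 18917653 to 18917661 had 1067 summed counts in 30 libraries and its highest relative abundance, 0.0161, in the leaf of plant 83. The site from 232384305 to 232384313 was read in 41 of the 46 libraries, all 17 endosperms among them, and was highest in the pollen of plant 75, at 0.0155 from 7 counts. The site from 32691728 to 32691736 reached 0.0497 in the pollen of plant 52, from 192 counts. In the leaf of plant 74 the site from 68870410 to 68870418 reached 0.0284, from 245 counts in the technical replicate. The site from 152930559 to 152930567 stayed at or under 0.00609.

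These 5 sites were each read at both borders and had 21 to 98 de novo sites within 500 bp. Their 1-Mb bins ranked between 50th and 114th of 234 by de novo sites, so that none lay in a dense bin. Over all bins, the numbers of recurrent and de novo sites had a Spearman rho of 0.972 (234 bins, a description over positions that share libraries and mapping).

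**Figure D4:**
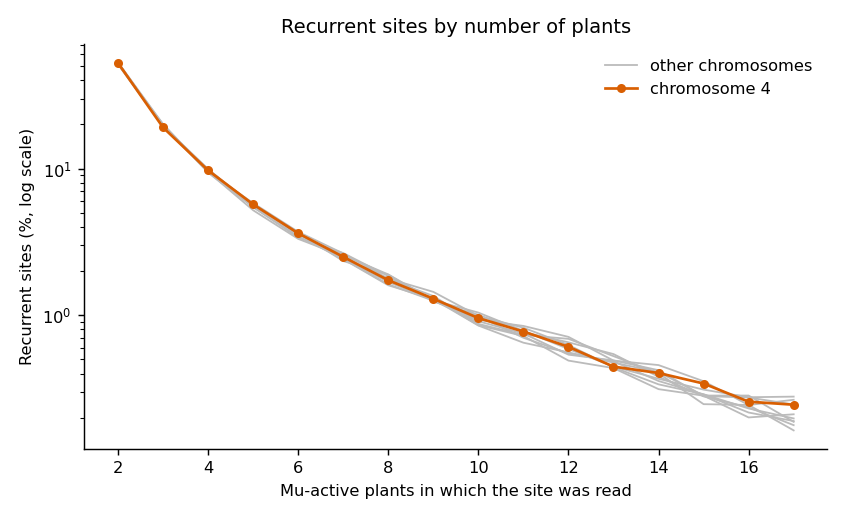
Share of recurrent sites (y axis, percent on a log scale) by the number of Mu-active plants in which a site was read (x axis), for chromosome 4 in orange and the other chromosomes in gray. Chromosome 4 lies within the range of the other chromosomes except at 3 plants, where its 19.1% is below their 19.3% to 20.1%.

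De novo sites of the interior were read mostly once. Of the 140277, 69.6% had no more than 1 count in any library, 2995 reached 10 counts, 301 reached a relative abundance of 0.01 and 4 reached 0.1. In the 2 shallow libraries of pollen 79 a single count is over 0.01, and without them 152 sites reached 0.01 and the same number, 4, reached 0.1. With all libraries kept, 69.5% to 70.2% of de novo sites on the other chromosomes had no more than 1 count. There 2.023% to 2.129% reached 10 counts, against 2.135% here, and 0.174% to 0.219% reached 0.01, against 0.215% here. At 0.1 or more the other chromosomes had 1 to 7 sites each. Both borders were read at 12.4%, against 11.1% to 12.3% on the other chromosomes. Numbers by tissue were 71913 in endosperm, 45316 in leaf, 4956 in root and 18810 in pollen, from unequal numbers and depths of libraries. By plant they ran from 2946 in plant 105 to 13824 in plant 79.

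Few sites were read in more than 1 tissue of a plant. Since 69.6% of the sites had no more than 1 count in any library, a site present in a second tissue could go unread. The numbers below therefore do not measure how many insertions the tissues share. One tissue alone held 99.5% of the sites, 718 were read in 2 tissues and none in 3. Endosperm and leaf shared 399, endosperm and pollen 158, endosperm and root 106, leaf and pollen 35, leaf and root 17, and root and pollen 3. These numbers cannot be compared between pairs, since plants and depths differed. Every plant gave endosperm, but only 2 gave both leaf and root, 3 root and pollen, and 6 leaf and pollen. Many plants gave only 2 tissues. On the other chromosomes 0.488% to 0.553% of de novo sites were read in more than 1 tissue, and on chromosome 4 it was 0.512%.

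Sites of high relative abundance were found in pollen, leaf and root in single plants. The pollen of plant 52 held 3 of the 4 sites at 0.1 or more. They began at 11001819, with 2631 counts and a relative abundance of 0.681, at 160911135, with 2389 counts and 0.619, and at 40356631, with 596 counts and 0.154. The endosperm of plant 52 had 0 counts at each of them. At the first 2, that places the endosperm under 0.000103, the level of 3 counts. The fourth site, at 213084117, was in the pollen of plant 107, with 429 counts and 0.161, and its endosperm also had 0 counts. The sites at 40356631 and 213084117 fall outside the rule for named sites and were named after their values were seen.

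In leaf the 2 most abundant sites were both of plant 79. The site from 190388759 to 190388767 had 1226 counts and a relative abundance of 0.0729 (95% Poisson interval 0.0689 to 0.0771). When this leaf was diluted with Mu-inactive leaf 1 part in 3, 10 and 30, the site was read at 0.0345, 0.00654 and 0.00272. The site from 167203757 to 167203765 had 1152 counts and 0.0685, and was read at 0.0388, 0.00864 and 0.00368 in the same dilutions. Both fell at each step of the dilution, and both had 0 counts in the endosperm of plant 79.

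Root had a site at a similar level. In root the highest were 0.0704 at 26588640 in plant 74, from 613 counts, and 0.0383 at 235168946 in plant 75, from 360 counts. In endosperm they were 0.0392 at 225240039 in plant 74, whose endosperm carries the MuKiller label, and 0.0280 at 200491531 in plant 52. Each of these 4 sites had 0 counts in the other tissues of its plant. Of the 152 sites at 0.01 or more outside pollen 79, dense bins held 48 (31.6%) and poor bins 6 (3.95%).

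Whether tissues differ in where their insertions fall was asked with 3 measures per plant. The first was the percentage of a library's de novo sites, over the interiors of all 10 chromosomes, that lay on chromosome 4. Endosperm had 10.6% ± 0.272 (SD, n = 15) and leaf 10.8% ± 0.246 (SD, n = 6). Root had 10.6% ± 0.839 (SD, n = 6) and pollen 10.8% ± 0.658 (SD, n = 14). The 6 leaves had 10.8%, 10.9%, 10.4%, 10.9%, 10.8% and 11.1% in plants 74, 75, 76, 78, 79 and 83. The 6 roots had 11.2%, 11.0%, 9.08%, 10.3%, 11.2% and 11.0% in plants 61, 63, 65, 69, 74 and 75. Endosperms ran from 10.1% to 11.0% with a median of 10.7%, and pollen from 10.1% to 12.4% with a median of 10.6%. The groups overlapped in all 6 pairs, and the differences did not exceed the spread between plants. The widest was endosperm minus leaf, at -0.205 percentage points (exact permutation test, two-sided, adjusted p = 0.756 over 6 pairs). The other 5 pairs had adjusted p = 0.922 (permutation tests, exact except endosperm with pollen).

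The second measure was the same percentage of summed counts, the de novo load. Endosperm had 10.6% ± 0.575 (SD, n = 15) and leaf 11.1% ± 1.23 (SD, n = 6). Root had 11.2% ± 4.16 (SD, n = 6) and pollen 11.1% ± 1.57 (SD, n = 14). All 6 pairs had adjusted p = 0.957 (permutation tests, exact except endosperm with pollen). Roots spread widely, at 9.81%, 8.39%, 7.08%, 9.35%, 17.4% and 15.3% in plants 61, 63, 65, 69, 74 and 75. The most abundant site held 33.8% of the chromosome 4 de novo counts of root 74, the site at 26588640, and 20.7% of those of root 75, the site at 235168946. In the pollen of plant 52, the highest pollen sample at 15.2%, the top site held 15.6%.

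The call on load depended on whether recurrent sites were counted. With them included, root was below the other tissues. Endosperm exceeded root by 1.12 percentage points (adjusted p = 0.00642 by the exact permutation test) and leaf exceeded root by 1.40 (adjusted p = 0.0476 by the exact permutation test). The difference of root minus pollen was -1.46 (adjusted p = 0.00642 by the exact permutation test). Under the other settings tried none of these 3 pairs passed, with adjusted p from 0.675 to 0.996 (permutation and exact sign-flip tests).

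The third measure was the percentage of a library's chromosome 4 de novo sites that lay in the central part of the interior, the middle 1 of 3 stretches of equal length and the one with the longest poor run. Length alone would give 33.3%. Endosperm had 20.3% ± 1.21 (SD, n = 15) and leaf 21.1% ± 0.306 (SD, n = 6). Root had 20.2% ± 1.84 (SD, n = 6) and pollen 20.5% ± 1.24 (SD, n = 14). Leaves lay within 20.7% to 21.4%, inside the ranges of the other tissues. No pair passed (permutation tests, adjusted p between 0.632 and 0.971). With at least 2 counts per site, endosperm minus root was 3.05 percentage points (exact permutation test, adjusted p = 0.00818), and its other settings gave adjusted p from 0.0878 to 1.0. With recurrent sites included, leaf minus root was 1.68 (exact permutation test, adjusted p = 0.0130), and its other settings gave adjusted p from 0.0779 to 1.0.

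**Figure D5:**
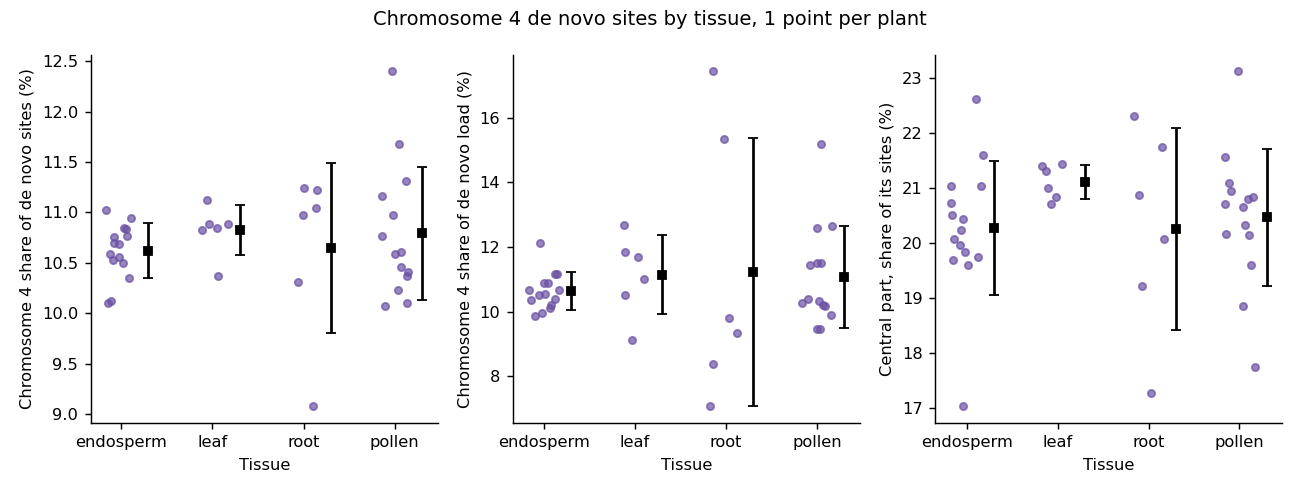
Per plant (points) and as mean ± SD (squares), the chromosome 4 share of de novo sites, its share of de novo load and the share of its sites in the central part, all in percent (y axes), by tissue (x axis). The y axes do not start at 0. Roots 74 and 75 stand apart in load at 17.4% and 15.3%, and the tissues overlap in every panel.

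The bin profiles of the tissues were alike in outline. Spearman rho over the 234 bins ran from 0.888 for endosperm with root to 0.948 for leaf with pollen, as a description. Dense bins held 29.8% of the endosperm sites, 28.3% of leaf, 28.4% of root and 30.0% of pollen. Poor bins held 4.63%, 4.76%, 4.78% and 4.10%. Dense and poor bins were defined on the de novo sites of all tissues pooled, of which 51.3% were read in endosperm. High shares in dense bins and low shares in poor bins are therefore partly built in. Every bin had at least 1 de novo site in each tissue, and each tissue had its highest bin between 181000001 and 184000000.

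The Mu-inactive leaves gave the background on this chromosome. The chromosome 4 load, de novo counts over the reference level, averaged 0.744 ± 0.255 (SD, n = 6) over Mu-active leaves. Over Mu-inactive leaves it averaged 0.00746 ± 0.00476 (SD, n = 3). On the log2 scale, with 1 count added, the lowest Mu-active leaf was at -1.12 and the highest Mu-inactive leaf at -6.57. The means lay 6.91 apart (p = 0.0119 by a two-sided exact permutation test, which is the lowest p possible with 6 and 3 plants). Among the other tissues, endosperm had a load of 0.675 ± 0.278 (SD, n = 15), root of 0.185 ± 0.0586 (SD, n = 6) and pollen of 1.20 ± 0.957 (SD, n = 14). With at least 2 counts per site the means lay 9.42 apart. With both borders read every Mu-inactive library had 0 counts and each Mu-active leaf library at least 1171, so that with each Mu-inactive library set to 3 counts the difference was at least 12.61. No Mu-inactive library had an abundant de novo site. In numbers of sites the groups lay closer. Mu-active leaves had 6205 ± 2495 (SD, n = 6) de novo sites on chromosome 4 and Mu-inactive leaves 476 ± 331 (SD, n = 3). Roots 65, 74 and 75 had 254, 206 and 220, fewer than the 721 and 608 of Mu-inactive plants 1 and 2. The other roots had 838 to 1913. The Mu-inactive libraries had the higher reference levels.

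The sites read in 1 Mu-inactive plant alone were spread differently along the chromosome from those of Mu-active leaf. On chromosome 4 lay 13.8% to 15.3% of them over the 3 plants, against 10.4% to 11.1% over the 6 Mu-active leaves. The interior of chromosome 4 makes up 12.2% of the length of all interiors. The central part held 32.5% to 38.8% in the Mu-inactive plants and 20.7% to 21.4% in the Mu-active leaves. The groups did not overlap in either measure, and the comparison was made after the values were seen and was not tested. Of 1526 such sites in full bins, poor bins held 15.5% and dense bins 13.4%, close to the 15.4% and 12.8% of bins that are poor and dense. None was read at both borders, and the highest count was 12.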

How the data were processed

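The authors deposited raw counts for each insertion site and library, in a table for both borders and one for each border. Bowtie2 is named in the submitters' processing notes. Not given in the sources used here are its version, the genome build, the site caller and any collapsing of duplicate molecules. The highest chromosome 4 position, 254265151, exceeds 250211175, where the last gene of the B73 table ends, which alone does not show a different build. On chromosome 6 the highest site, at 171536008, lay before the end of the last gene, at 181259608. The same order held on chromosomes 5, 7 and 10. With the build not given, no gene context was assigned. Of library columns, 0 lacked a sample. At 8 members the combined count is not the sum of both borders.

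The chromosome, the site classes and the tests were chosen with earlier results of these data known. Each plant was 1 replicate, with its technical libraries averaged. Plant numbers came from library names, which 3 titles or descriptions contradict. The 15 endosperms tested leave out the 2 with the MuKiller label. Root 61, root 74, leaf 74 and pollen 74 of the same plants were kept in the tests. Numbers and densities of endosperm de novo sites include the 2 labelled endosperms. Tissue pairs were compared by two-sided permutation tests on means, exact where a group had under 10 plants and otherwise with 100000 permutations, adjusted by Benjamini-Hochberg over 6 pairs with a threshold of 0.05. The same number marks the same plant per the labels. Over the 13 plants that gave both, the chromosome 4 site share of endosperm was set against that of pollen. Pearson's r was 0.623 (p = 0.0251 by permutation) and 0.710 without the 2 plants farthest from the median, and Spearman's rho was 0.742 (p = 0.00485 by permutation). The pollen shares of plants 79 and 83 rest on few sites, 81 and 72 in the 2 libraries of plant 79 and 153 in plant 83. The permutation tests between tissues do not use the pairing by plant, and only the alternative with the plant as a block does. The relation of endosperm with pollen was the only one computed across samples.

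Named were the inherited sites in most plants, the 5 recurrent sites in most plants (ties by summed counts), per tissue the 2 most abundant de novo sites that had both borders and 10 or more counts, the 5 densest and 5 poorest bins, the longest poor run and the 3 longest gaps. The rule for inherited sites took 5.

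Reference levels ran from 69.0 to 80688, and 7 Mu-active undiluted libraries were under 1000. Intervals and floors (3 counts) cover counting error only, since PCR reads are not known to be independent molecules. Other counts per site, borders, margins, libraries and site classes were tried. The procedure was tested on simulated data. Calculations used Python 3.11.15, numpy 2.4.6, scipy 1.17.1, pyarrow 21.0.0 and matplotlib 3.10.9.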

Additional observations from a re-analysis of the deposited data

Results flagged for a closer look

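The root of plant 65 stood apart from the other 5 roots in its chromosome 4 load, at -3.54 on the log2 scale. Its share of de novo sites on chromosome 4, 9.08%, was also the lowest of the roots. The gap exceeded Dixon's 95% critical value, which about 1 in 20 groups exceed by chance.

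The diluted leaves held members that no undiluted library had read. There were 3852 in leaf 79 diluted 1 part in 3, 2752 in leaf 83 diluted 1 part in 3 and 744 in leaf 83 diluted 1 part in 10. The highest Mu-inactive library had 721 sites of its own. In leaf 79 diluted 1 part in 10 and 30 there were 536 and 524, and in leaf 83 diluted 1 part in 30 there were 251.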

How the results depend on the processing

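Of 153 alternatives, 98 kept direction and side of the threshold or, without a test, stayed within their error, though some of these moved in size. The densities moved with the definition. Chromosome 4 had 182.0 de novo sites per Mb with at least 2 counts, 74.5 with both borders read, 592.7 with a margin of 20 Mb and 779.7 with recurrent sites, and 307.0, 193.4, 21.2 and 80.3 in endosperm, leaf, root and pollen alone. Its ratio to the median of the others was 0.956 with both borders, 0.985 with the wider margin, 0.893 with recurrent sites, and 0.890, 0.926, 0.963 and 0.885 in those 4 tissues. The densest 10% of bins held 24.0% of sites, 23.3% with 2-Mb bins and 24.8% with at least 2 counts.

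Tissue differences that did not pass changed sign under several settings, in percentage points and in the order named. For the share of sites, the plant as a replicate block gave 0.204 for endosperm minus root, -0.235 for leaf minus root, -0.180 for leaf minus pollen and 0.391 for root minus pollen. At least 2 counts gave 0.0270 for endosperm minus leaf, -0.0505 for leaf minus root and -0.0684 for leaf minus pollen. Both borders gave 0.476 for endosperm minus root, and recurrent sites gave 0.0156. Leaving out libraries whose reference level was under 1000 gave 0.00521 for endosperm minus pollen and 0.0282 for root minus pollen. The margin of 20 Mb gave 0.0756 for endosperm minus root and -0.0917 for leaf minus pollen.

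For the share of load, the block gave 0.469 for endosperm minus root. At least 2 counts gave 0.0103 for leaf minus root. Both borders gave 0.947 for leaf minus root and -0.207 for root minus pollen. Recurrent sites gave 1.12 for endosperm minus root, 1.40 for leaf minus root, -1.46 for root minus pollen, all 3 past the threshold, and -0.0633 for leaf minus pollen. The margin gave 0.153 for endosperm minus root, 0.482 for leaf minus root, -0.0386 for leaf minus pollen and -0.520 for root minus pollen.

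For the central part, at least 2 counts gave 0.237 for endosperm minus leaf, -0.310 for leaf minus pollen and 3.05 for endosperm minus root, the last past the threshold. Both borders gave 0.717 for endosperm minus leaf, 1.02 for endosperm minus pollen and 0.186 for root minus pollen. Deeper libraries gave 0.305 for endosperm minus pollen and 0.0476 for root minus pollen. Recurrent sites gave 0.177 for endosperm minus pollen and 1.68 for leaf minus root, the last past the threshold. The margin gave -0.360 for endosperm minus root and -0.0277 for leaf minus pollen. MuKiller-labelled endosperms gave -0.0237 for endosperm minus root. The cause of these changes was not tested.

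The replicate block changed no call, but only endosperm minus pollen, where 13 plants gave both tissues, could have passed with it. In 4 of the 6 tissue pairs the smallest p of its sign-flip test is over 0.05 before adjustment. For leaf minus pollen the smallest sign-flip p is 0.0312, too high to pass after adjustment over 6 pairs. The block moved leaf minus root from -0.0871 to -5.04 and root minus pollen from 0.159 to 3.16 in the share of load. Leaving out 1 Mu-inactive plant at a time, Mu-active minus Mu-inactive leaf was 6.12 to 7.33 on the log2 scale (exact permutation p = 0.0357 each, the smallest that 6 against 2 plants allow). It was 9.42 with at least 2 counts and 14.19 with both borders read, where all Mu-inactive libraries were at 0 and the value depends on the added count. Leaving out pollen 79 was an alternative chosen after seeing the data.

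Depth limits these results in pollen most, whose shallowest library has 3 counts at a level of 0.0435. Most de novo sites rest on 1 count, and Mu-inactive leaf, which had such sites too, had none read at both borders. Conflicting plant labels, the unknown build and unequal extraction are further limits.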
